A study of Mus musculus with 2 samples.

Results

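The genes described here are 10 genes of pigment cells and of the retinal pigment epithelium: Mitf, Tyr, Tyrp1, Dct, Pmel, Mlana, Gpnmb, Ednrb, Rpe65 and Ttr. They were read from every probe set of the array whose platform annotation gave exactly 1 gene symbol that was one of these 10 names, which gave 21 of 45037 probe sets. The array carried no probe set that joined one of these names to another gene. The genes were picked with values of these arrays known, so their counts and medians below are descriptions.

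RNA came from 1 retina of a Sox11 knockout (Sox11-/-) mouse embryo and 1 retina of a wild-type littermate, both on the C57BL/6 background and both at embryonic day 18 (E18). Sox11 is a transcription factor of differentiating neurons, and the labels name the mutant a loss of function without giving the deleted part or a Cre driver. Each RNA was amplified, labelled with biotin and put on 1 Affymetrix mouse array, and the stated purpose was to find transcripts that change with the loss of Sox11. Each genotype has a single array, so no error between animals can be given, no test was possible, and all differences are between these 2 arrays. Deposited intensities were on a linear scale. Ratios are Sox11 knockout minus wild type, on log2(intensity + 5), which understates differences of dim probe sets. In bulk tissue, more cells of a type and more RNA per cell cannot be told apart.

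Melanin is made inside melanosomes, which in the eye are found in the retinal pigment epithelium, a single cell layer behind the neural retina that derives from the optic cup, and in melanocytes of the choroid and iris, which derive from the neural crest. Mitf is the transcription factor at the head of this programme in both lineages. It binds a short DNA element, the M-box, in front of the genes of the melanin enzymes tyrosinase (Tyr), tyrosinase-related protein 1 (Tyrp1) and dopachrome tautomerase (Dct). C57BL/6 mice are pigmented. Which cells gave the signal of these genes was not tested.

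Pigment genes read higher on the knockout array, and their regulator Mitf did not. Dct, Pmel and Tyrp1, measured in both retinas, were between 1.16-fold and 1.95-fold higher in the knockout, and Ednrb, the endothelin B receptor, was between 2.22-fold and 2.95-fold higher by its 3 probe sets. Tyr, Mlana, Gpnmb and Ttr reached the filter value, the level taken to stand for background, in the knockout only. These genes could thus only be measured by being higher there. Mitf differed by a log2 ratio of -0.06, and Rpe65 was below the filter value in both retinas.

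The arrays also differed in other ways, whose part in the values here was not tested. Sox11 itself read 252.4 in the knockout and 3205.7 in the wild type by its brightest probe set, and its 6 probe sets had log2 ratios from -3.64 to 1.08, 5 of them negative. Which of them lie in the deleted part is not stated, so those outside it check nothing. Xist, the RNA of the inactive X chromosome, was at least 49.6-fold higher in the knockout by its brightest probe set, and the Y-linked gene Eif2s3y at least 11.5-fold lower by its brighter one. The 2 embryos thus differed in sex-linked transcripts as well as in genotype, and sex and genotype cannot be told apart here. The array-wide split of 2-fold differences was 347 higher and 94 lower. It was 252 and 126 after quantile normalization and 258 and 124 after loess.

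A probe set was counted as measured if its brighter array reached 18.6, the pooled median intensity of both arrays, which stands in for the background because detection calls were not used here. By that rule 13 of the 21 probe sets, from 9 of the 10 genes, were measured. Of these, 9 probe sets of 5 genes (Mitf, Tyrp1, Dct, Pmel and Ednrb) were above 18.6 on both arrays. The 4 others, one each of Tyr, Mlana, Gpnmb and Ttr, reached it on the knockout array only, so they could only be measured by being higher there. The remaining 8 were below 18.6 on both arrays, with intensities from 2.0 to 14.5 in the knockout and from 0.7 to 9.8 in the wild type, and Rpe65 was among them with its single probe set. The label of a pigment cell group is thus carried by Pmel, Dct and Tyrp1, which were above 18.6 in both retinas, while the defining pigment epithelium gene Rpe65 was not.

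Of all 21 probe sets, 19 had the higher intensity on the knockout array and 2, both of Mitf, the lower one. Over all 45037 probe sets, 52.1% were higher in the knockout. At least 2-fold higher on the log2(intensity + 5) scale were 5 of the 13 measured probe sets, from Ednrb, Mlana and Ttr, against 1.47% of the 23581 measured probe sets of the array. None was 2-fold lower, against 0.399% of the array. Among the 9 above 18.6 on both arrays, 3 were 2-fold higher, all of them Ednrb, where 0.489% of the 21472 such probe sets of the array were. The share of the array depended on level: it was 4.66% in the dimmest of 4 equal bands of mean level, 0.831% and 0.271% in the next ones and 0.119% in the brightest, and 5 of the 13 lay in the dimmest. Since the genes were chosen on this contrast, nothing is read from these shares. The median log2 ratio was 0.71 over all 21 probe sets, 0.79 over the 13 measured and 0.73 over the 9 above 18.6 on both arrays. For the array these medians were 0.02, 0.03 and 0.02.

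Just inside the 2-fold line lay the Ednrb probe set 1423594_a_at, at a log2 ratio of 1.06, and just outside it Dct, at 0.91. Probe sets of one gene differed in log2 ratio with a pooled SD of 0.26, over all genes with several measured ones; it is a spread within arrays and not between animals.

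**Figure D1:**
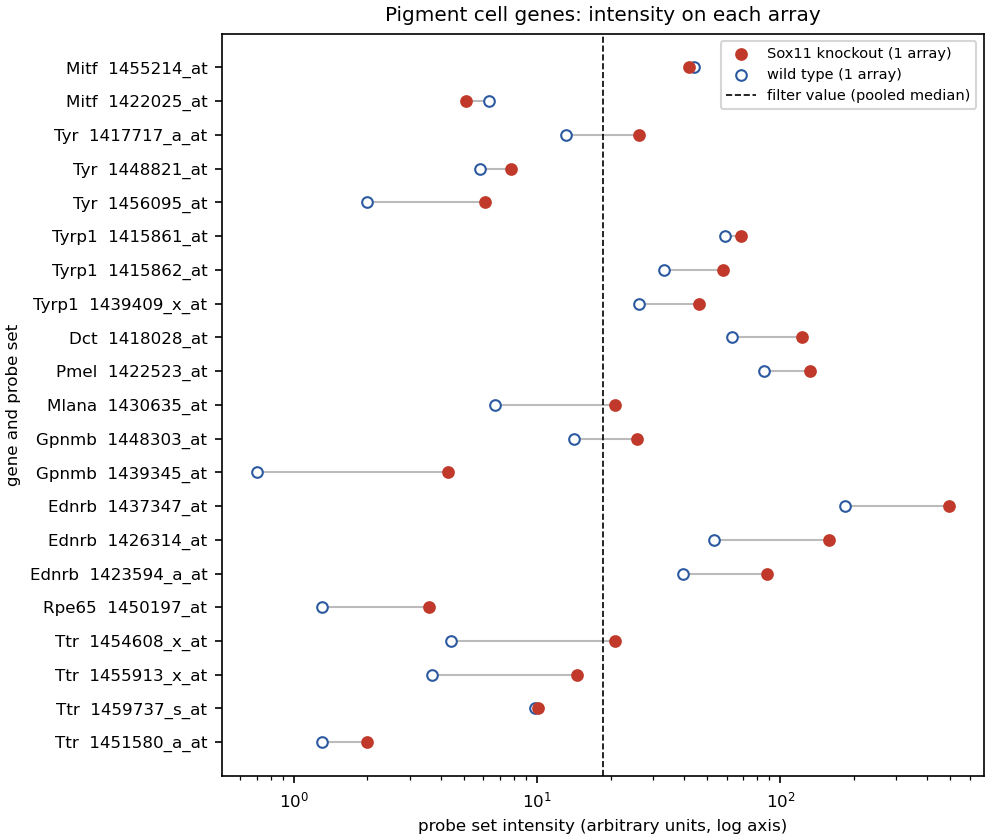
Intensity (arbitrary units, log axis) of all 21 probe sets on the Sox11 knockout array (filled) and the wild-type array (open), grouped by gene; the dashed line is the filter value of 18.6. The knockout point lies to the right in all but the 2 Mitf probe sets, and both arrays lie left of the line for Rpe65.

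Mitf, the regulator, was the exception in direction. Its brighter probe set, 1455214_at, read 42.1 in the knockout and 44.2 in the wild type, a log2 ratio of -0.06, which is smaller than the spread between probe sets of a gene. The other, 1422025_at, read 5.1 in the knockout and 6.3 in the wild type, below 18.6 on both. Mitf is transcribed from several starts that give different first exons, and the 2 probe sets were not assigned to isoforms here. The central 95% of log2 ratios at the level of 1455214_at ran from -0.53 to 0.77.

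The promoter windows of the 3 melanin enzyme genes are shown because each holds the same 9-base M-box. They were read from RefSeq on GRCm38.p6, from 250 bases before to 50 bases after an annotated transcript start, 5′ to 3′ on the strand of the gene. Capitals mark every match to TCATGTG, extended to TCATGTGCT where those letters follow, on either strand (CACATGA on the other strand).
Tyr, chr7:87493463-87493762, minus strand: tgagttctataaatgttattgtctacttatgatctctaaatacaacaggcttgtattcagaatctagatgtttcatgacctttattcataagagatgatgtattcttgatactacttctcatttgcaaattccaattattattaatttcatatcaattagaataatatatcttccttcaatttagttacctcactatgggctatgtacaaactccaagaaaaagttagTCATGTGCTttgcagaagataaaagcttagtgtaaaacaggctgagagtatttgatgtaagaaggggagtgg
Tyrp1, chr4:80833963-80834262, plus strand: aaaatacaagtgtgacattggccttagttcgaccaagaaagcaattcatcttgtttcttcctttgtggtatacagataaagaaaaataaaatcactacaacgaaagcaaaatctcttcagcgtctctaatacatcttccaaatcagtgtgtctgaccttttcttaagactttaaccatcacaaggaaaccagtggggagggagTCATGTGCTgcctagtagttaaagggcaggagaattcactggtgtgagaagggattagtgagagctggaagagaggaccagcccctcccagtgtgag
Dct, chr14:118052197-118052496, minus strand: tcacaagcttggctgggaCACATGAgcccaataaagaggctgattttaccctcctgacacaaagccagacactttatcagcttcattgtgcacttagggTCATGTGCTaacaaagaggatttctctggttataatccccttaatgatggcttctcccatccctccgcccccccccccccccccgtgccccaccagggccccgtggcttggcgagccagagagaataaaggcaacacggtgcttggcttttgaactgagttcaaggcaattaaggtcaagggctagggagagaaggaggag

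The 9 bases TCATGTGCT began 22 bases before the start in Tyr, 47 bases before it in Tyrp1 and 151 bases before it in Dct. Dct held a second match to the 7-base core, on the other strand, from 232 to 226 bases before the start. Of 32851 annotated windows of the same length, 134 (0.408%) held TCATGTGCT on either strand and 1239 (3.77%) held the core TCATGTG. The shorter E-box CATGTG lies inside both and was found in 4650 windows (14.2%). RefSeq windows were matched for 7 of the 10 genes, 9 windows in all because Mitf has 3. Rpe65 held 1 E-box on the other strand, from 239 to 234 bases before its start, and no M-box core. None of the 3 motifs was found in the windows of Mitf, Gpnmb or Ednrb. A match is a description of the letters, and binding was not measured here.

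**Figure D2:**
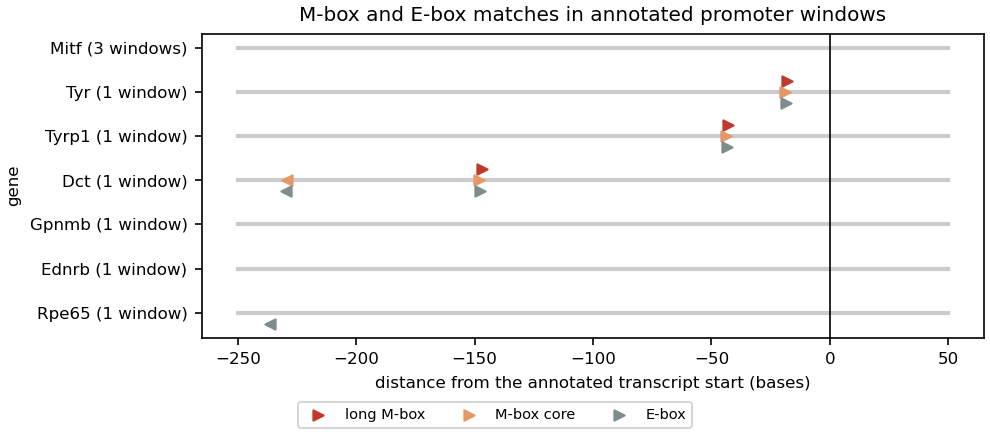
Positions of motif matches (arrowheads, pointing along the strand of the match) in the promoter windows of the 7 genes with a RefSeq window; the horizontal axis is the distance from the annotated transcript start in bases. The 9-base M-box is found in Tyr, Tyrp1 and Dct, at 22, 47 and 151 bases before the start, and the windows of Gpnmb, Ednrb and Mitf hold no match.

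Dct, which converts dopachrome to the carboxylated indole of eumelanin, was the melanin enzyme with the largest ratio among those above 18.6 on both arrays. Its probe set 1418028_at read 122.9 in the knockout and 63.0 in the wild type, 1.95-fold, with a log2 ratio of 0.91. Its single probe set lay above the central 95% of log2 ratios in its level band, the second from the bottom, which ran from -0.53 to 0.77.

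Tyrp1, which in mouse oxidises the carboxylated indole made by Dct, was higher on the knockout array by all 3 of its probe sets, by unequal amounts. The brightest, 1415861_at, read 68.7 in the knockout and 59.4 in the wild type, a log2 ratio of 0.19. By 1415862_at it read 58.1 in the knockout and 33.1 in the wild type, a log2 ratio of 0.73. The third, 1439409_x_at, whose suffix marks probes that can match other transcripts, gave 46.4 in the knockout and 26.2 in the wild type, a log2 ratio of 0.72. The first and the other two thus differ by more than the spread between probe sets of a gene, and all 3 lay inside the central 95% of their level bands.

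Tyr, the rate-limiting enzyme of melanin synthesis, was dim on both arrays. Its probe set 1417717_a_at read 26.2 in the knockout and 13.1 in the wild type, at least 1.41-fold higher against the filter value, with a log2 ratio of 0.79. The others, 1448821_at and 1456095_at, read 7.8 and 6.1 in the knockout and 5.8 and 2.0 in the wild type. All 3 were on the same side, and only the first reached 18.6. The 3 enzyme genes with the 9-base M-box had gene log2 ratios of 0.79 for Tyr, 0.19 for Tyrp1 and 0.91 for Dct, beside -0.06 for Mitf. The genes were picked with these values known, and Tyr could only be measured by being higher in the knockout. A link of these ratios to the M-box or to Mitf was not tested.

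Pmel, which forms the amyloid fibrils on which melanin is laid down, was above 18.6 on both arrays. Its probe set 1422523_at read 131.8 in the knockout and 85.2 in the wild type, 1.55-fold, with a log2 ratio of 0.60, just above the upper end of 0.57 of the central 95% in its level band. Mlana, a melanosome membrane protein that takes part in the maturation of Pmel, read 20.9 in the knockout and 6.7 in the wild type by 1430635_at. Its log2 ratio was 1.15, but against the filter value it was only at least 1.12-fold higher. Gpnmb, a relative of Pmel made in melanosomes and also by macrophages, read 25.6 in the knockout and 14.2 in the wild type by 1448303_at, at least 1.38-fold higher, with a log2 ratio of 0.67. Its other probe set, 1439345_at, read 4.3 in the knockout and 0.7 in the wild type. Both Gpnmb probe sets were higher on the knockout array, one of them far under the filter value on either array.

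Ednrb stood apart from the melanin genes. It encodes the endothelin B receptor, which neural crest melanoblasts need, and which is also made by glia and by vascular cells, so it is not a marker of pigment cells alone. The probe set 1437347_at read 494.1 in the knockout and 185.1 in the wild type, 2.67-fold, with a log2 ratio of 1.39. By 1426314_at it read 157.7 in the knockout and 53.5 in the wild type, 2.95-fold, with a log2 ratio of 1.48. The third, 1423594_a_at, gave 88.2 in the knockout and 39.8 in the wild type, 2.22-fold. All 3 Ednrb probe sets were above 18.6 on both arrays, 2-fold or more higher in the knockout, and above the central 95% of their level bands. The brightest lay in the top band, where 0.119% of 5895 probe sets were 2-fold higher, and the others in the second band from the bottom, where 0.831% were. The 3 probe sets are readings of 1 gene on the same arrays and not replicates. Because the genes were picked with these values known, nothing is read from these shares or from the central 95% ranges given for any of them.

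Rpe65, the isomerase that makes 11-cis-retinol in the pigment epithelium, read 3.6 in the knockout and 1.3 in the wild type by 1450197_at, so no ratio is given. Ttr, transthyretin, carries thyroxine and, bound to the retinol carrier Rbp4, retinol, and is made by pigment epithelium and choroid plexus. Its probe set 1454608_x_at read 20.8 in the knockout and 4.4 in the wild type. The log2 ratio was 1.46, the bound only 1.12-fold. The other 3 Ttr probe sets were below 18.6 on both arrays. Of these, 1455913_x_at read 14.5 in the knockout and 3.7 in the wild type, and 1459737_s_at was level at 10.1 in the knockout and 9.8 in the wild type. The dimmest, 1451580_a_at, read 2.0 in the knockout and 1.3 in the wild type. Only 1454608_x_at reached 18.6, so the Ttr value rests on a single dim probe set. All 4 Ttr probe sets have suffixes for probes that can match several transcripts.

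**Figure D3:**
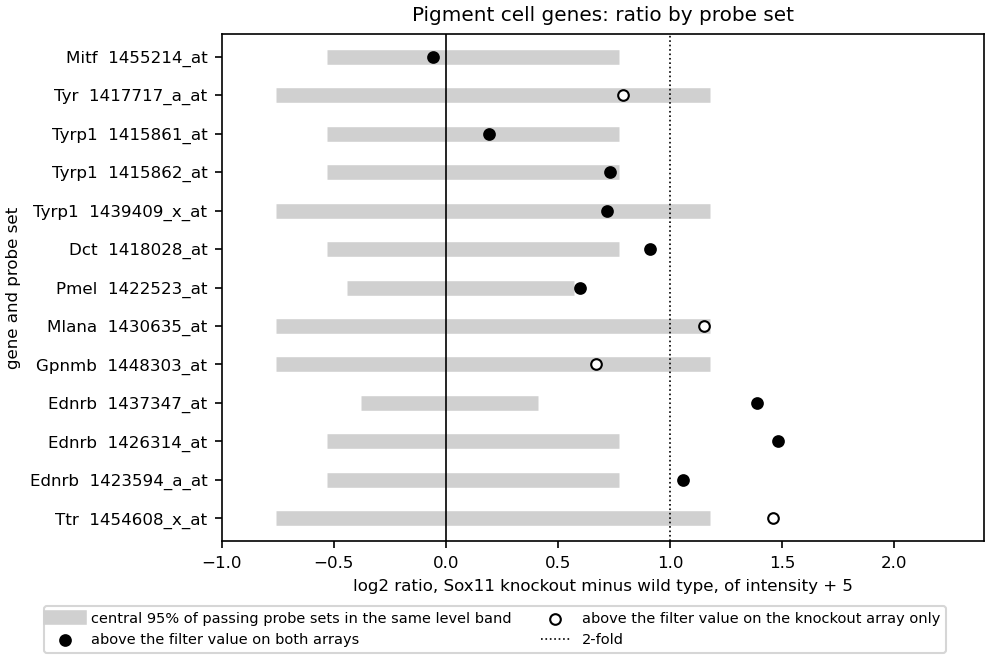
Log2 ratio, Sox11 knockout minus wild type, of the 13 measured probe sets; filled points were above 18.6 on both arrays and open points on the knockout array only, grey bars are the central 95% of probe sets in the same level band, and the dotted line marks 2-fold. The 3 Ednrb points lie farthest beyond their bars, Dct and Ttr lie beyond theirs, Pmel lies at the edge, and Mitf lies next to 0.

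The gene ratios of Tyr, Tyrp1, Dct, Pmel, Mlana, Gpnmb, Ednrb and Ttr were positive, and that of Mitf negative, under every scaling run.

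Other genes of pigment biology were read from 8 lists, 1 value per gene from its brightest measured probe set. Over the 11557 genes measured this way, the median log2 ratio was -0.01 and 47.7% had a positive ratio. Of them, 0.943% were 2-fold higher and 0.407% were 2-fold lower.

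The machinery that builds and moves melanosomes, which also serves lysosome-related organelles of other cells, was level. Of 23 listed genes 19 were measured, 11 of them with a positive and 8 with a negative ratio, none by 2-fold, and the median was 0.01 (-0.02 to -0.01 under the other scalings). The members with the largest ratios were Rab38 and Rab32, small GTPases that carry Tyr and Tyrp1 to melanosomes. Rab38 read 113.7 in the knockout and 67.1 in the wild type, a log2 ratio of 0.72 (its second measured probe set gave 0.12), and Rab32 was at least 1.26-fold higher, with a log2 ratio of 0.59. Myo5a, the motor that moves melanosomes along actin, had 0.31, and Hps5, a subunit of a trafficking complex, 0.28. Hps1, of another such complex, had -0.11 by its brighter probe set and -1.15 by its other one. Mlph, which links Myo5a to melanosomes, was below 18.6 on both arrays.

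Of the transporters and accessory genes of the melanosome, 3 of 11 were measured. Oca2, an anion channel of the melanosome membrane, read 33.0 in the knockout and 21.5 in the wild type, a log2 ratio of 0.52. The copper pump gene Atp7a and the hormone precursor gene Pomc had 0.10 and -0.01, and the other measured probe set of Pomc gave 0.35. Slc45a2, Gpr143, Slc7a11, Mcoln3, Tpcn2 and Mc1r were below 18.6 on both arrays.

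In the melanocyte and neural crest list, 7 of 12 genes were measured, with 4 positive and 3 negative ratios, none 2-fold, and a median of 0.16 (0.04 with intensities below 18.6 set to it). Sox10, Pax3 and Foxd3, the transcription factors that define the crest lineage, were below 18.6 on both arrays. Erbb3, a neuregulin receptor, read 20.8 in the knockout and 10.1 in the wild type, at least 1.12-fold higher, and Sox5 was at least 1.04-fold higher by the brighter of its 2 measured probe sets, while the other gave -0.90. Tfap2a, which amacrine cells also express, had a log2 ratio of -0.44, and Kit, the receptor of melanoblasts, -0.27 by the brighter of its 2 probe sets and 0.02 by the other.

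Pigment epithelium genes outside the 10 were mixed. Of 27 listed, 17 were measured, 11 with a positive ratio and 6 with a negative one. The median was 0.23, or 0.13 with intensities below 18.6 set to it. Efemp1, a fibulin of the extracellular matrix, read 253.9 in the knockout and 85.6 in the wild type, 2.97-fold. Wfdc1, a secreted protease inhibitor homologue, read 120.6 in the knockout and 44.2 in the wild type, 2.73-fold. Their log2 ratios of 1.51 and 1.35 were the 2 in the list past 2-fold on the log2(intensity + 5) scale. Serpinf1, the secreted factor PEDF, read 52.2 in the knockout and 24.4 in the wild type, 2.14-fold in intensity, with a log2 ratio of 0.96 on that scale. Rlbp1, which binds retinaldehyde in pigment epithelium and in Müller glia, went the other way, at 147.0 in the knockout and 296.5 in the wild type, a log2 ratio of -0.99. The visual cycle genes Lrat, Rgr and Rdh5, the chloride channel gene Best1 and the lactate transporter gene Slc16a8 were, like Rpe65, below 18.6 on both arrays.

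Transcription factors of the eye field and pigment epithelium had a median of -0.01 over 10 measured genes, with 5 positive and 5 negative. The largest ratios were those of Otx1, at 40.2 in the knockout and 30.0 in the wild type with a log2 ratio of 0.37, and of Nr2f1, Nr2f2 and Lhx2, at 0.35, 0.20 and 0.19. That median was 0.05 after loess and -0.03 after median centring. Otx2, which acts with Mitf in pigment epithelium and is also made in photoreceptor precursors, read 1751.3 in the knockout and 1841.2 in the wild type. Partners and regulators of Mitf were level too, with a median of 0.05 over 7 genes, which was -0.05 after quantile normalization. Tfe3, a relative of Mitf on the X chromosome, had the largest ratio at 0.36, and Tfec, another relative, was below 18.6 on both arrays. Ctnnb1, Creb1 and Usf1 had -0.13, -0.12 and -0.11 by their brightest probe sets, while other measured probe sets of these genes gave up to 0.25, 0.94 and 0.51.

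The ligands of Ednrb were not measured: Edn1, Edn2 and Edn3 were below 18.6 on both arrays. The endothelin-converting enzyme gene Ece1 read 190.6 in the knockout and 135.5 in the wild type, a log2 ratio of 0.48, although its other measured probe set gave -0.67, and Ece2 had -0.17. Among partners of Ttr, Rbp4 read 61.3 in the knockout and 28.4 in the wild type, 2.16-fold with a log2 ratio of 0.99. The thyroid hormone receptor gene Thrb had 0.64, and the retinoid X receptor genes Rxrb and Rxra had -0.27 and -0.19. The median of that list of 6 measured genes was -0.04.

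**Figure D4:**
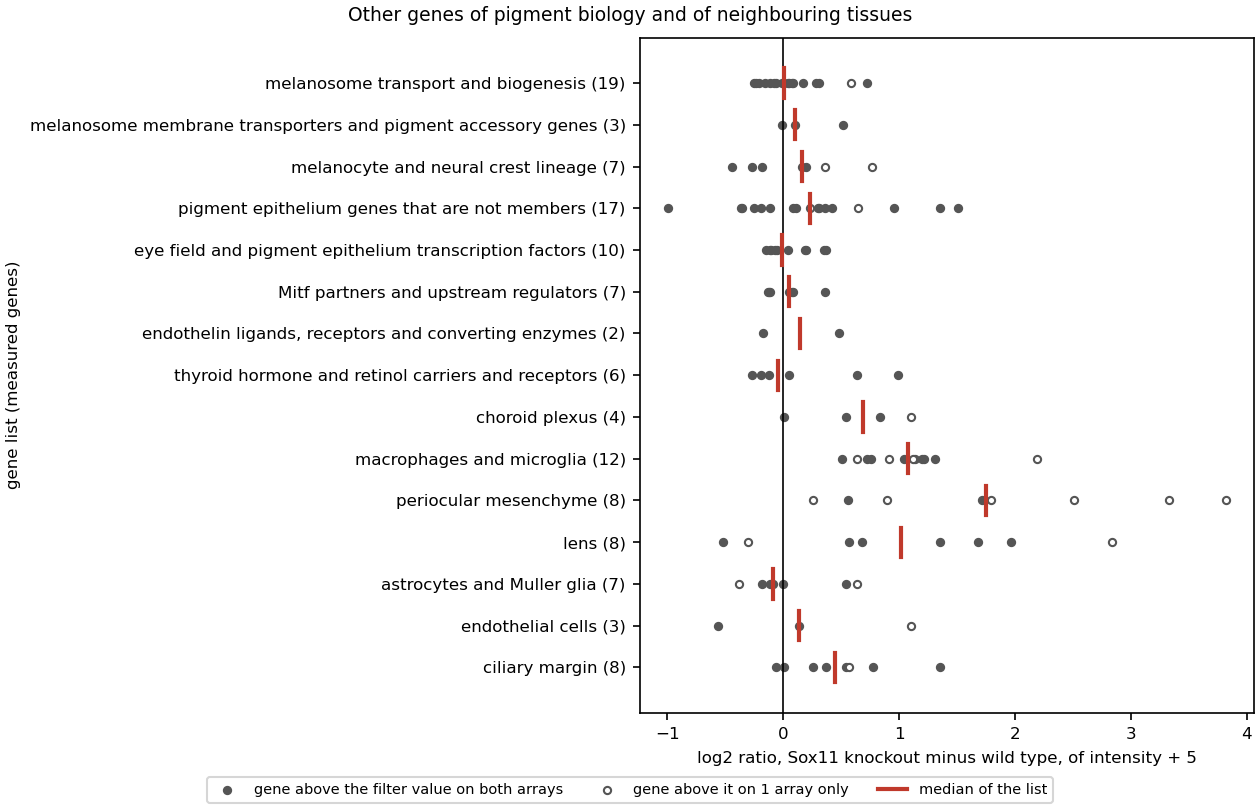
Log2 ratio, Sox11 knockout minus wild type, of each measured gene (filled where above 18.6 on both arrays, open where on 1 array only) in 15 lists, with the list median as a red bar and the number of measured genes in brackets. The melanosome machinery and the eye field factors centre near 0. The medians of mesenchyme, macrophages and lens lie to the right, at 1.75, 1.08 and 1.02, with lens genes on both sides of 0.

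Markers of several other tissues leaned in the same direction as most of the pigment genes, while those of glia and endothelial cells were mixed. The part of any of them in the values above was not tested. All 8 measured genes of 11 in the periocular mesenchyme list were higher on the knockout array. Of these, 6 reached 18.6 on that array only and could only be measured by being higher there. The others were Col1a2 and Ogn. The summed intensity of the 8 was 630.0 in the knockout and 101.0 in the wild type. Their median log2 ratio was 1.75 (1.10 with intensities below 18.6 set to it, which 6 of them had in the wild type). By log2 ratio Col3a1, Dcn, Lum and Postn led this list, at least 13.6-fold, 7.17-fold, 2.87-fold and 2.09-fold higher, all from wild-type values below 18.6. Col1a2, above 18.6 on both arrays, read 76.1 in the knockout and 19.6 in the wild type, 3.88-fold, with a log2 ratio of 1.72. Foxc2 and Twist1 were below 18.6 on both arrays. All 12 measured macrophage and microglia genes of 15 were also higher, 7 of them by 2-fold. Of the 12, 4 reached 18.6 on the knockout array only, so they could only be measured by being higher there. Fcer1g and Mpeg1, which are among the 7, belong to these 4, and Fcer1g was at least 1.58-fold higher against the filter value. The summed intensity of the list was 986.0 in the knockout and 480.0 in the wild type. The median was 1.08 (0.90 with values at 18.6). Laptm5 had 1.14 by its brighter measured probe set and -0.25 by its other one. Mpeg1, a pore-forming protein of macrophages, was at least 2.75-fold higher, and C1qb, C1qa and C1qc, which form the first complement component, had log2 ratios of 1.31, 1.22 and 1.20, while Aif1, Ptprc and Trem2 were below 18.6 on both arrays. These values stand beside Gpnmb, which macrophages also make.

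Lens genes had a median of 1.02, with 6 of 8 measured genes of 11 higher and a summed intensity of 688.0 in the knockout and 386.0 in the wild type. The bound for Crygd was 3.26-fold, while Crygf, Cryga and Crygb had log2 ratios of 1.97, 1.68 and 1.35. Cryaa and Lim2 went the other way. Cryaa, above 18.6 on both arrays, read 79.8 in the knockout and 116.4 in the wild type, a log2 ratio of -0.52. Lim2 had -0.3 and reached 18.6 on the wild-type array only. Gamma crystallins are near-identical in sequence, so which of them gave the signal is uncertain. Mip, Bfsp1 and Bfsp2, which mark lens fibres, were below 18.6 on both arrays.

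Ciliary margin genes, from the rim of the optic cup where neural retina and pigment epithelium meet, had 7 positive ratios, with Mitf as the one negative member. The median was 0.45 over all 8 listed genes, or 0.31 with intensities below 18.6 set to it. Their summed intensity was 2080.0 in the knockout and 1370.0 in the wild type, most of it from Gja1 and Sfrp2. After Wfdc1, the largest ratios were those of Sfrp2, a secreted Wnt antagonist, at 0.78, Wls, needed for Wnt secretion, at 0.57 (at least 1.13-fold), and Gja1, the gap junction protein connexin 43, at 0.54. The 6 measured probe sets of Gja1 ran from 0.19 to 1.64. Choroid plexus genes, which share Ttr with pigment epithelium, had 4 of 8 measured, all positive. Of the 4, Slc4a5 reached 18.6 on the knockout array only, so it could only be measured by being higher there. The median was 0.69 (0.53 with intensities below 18.6 set to it), and the summed intensity was 180.0 in the knockout and 111.0 in the wild type. Slc4a5, a bicarbonate transporter, was at least 1.55-fold higher, and Folr1, the folate receptor, Aqp1, a water channel, and Msx1, a homeobox factor, had 0.84, 0.54 and 0.01. Clic6, Kl, Kcne2 and Cldn2 were below 18.6 on both arrays.

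Ednrb is also made by glial and vascular cells, whose lists are given beside it, and their part in its value was not tested. Astrocyte and Müller glia genes had a median of -0.09 over 7 measured genes of 10, 5 of them negative, with a summed intensity of 5030.0 in the knockout and 5210.0 in the wild type. Aldh1l1, a folate enzyme of astrocytes, was at least 1.23-fold higher, and Aqp1, Gfap, the glial filament protein, and Slc1a3, the glial glutamate transporter, had 0.54, -0.38 and -0.18. Aqp4 and S100b were below 18.6 on both arrays. Gfap and Aldh1l1 reached 18.6 on 1 array only. Most of the sum came from Glul, at 2428.9 in the knockout and 2437.1 in the wild type, and Fabp7, at 1945.0 and 2072.2. The sum thus describes mainly these genes, and nothing is read from it about the amount of glia. Of 8 endothelial genes 3 were measured, 2 with a positive and 1 with a negative ratio, with a median of 0.14 and a summed intensity of 626.0 in the knockout and 813.0 in the wild type. Esam had a log2 ratio of 1.10 and was at least 1.34-fold higher, and Kdr and Cldn5 had -0.56 and 0.14. Pecam1, Cdh5, Tek, Tie1 and Emcn were below 18.6 on both arrays.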

How the data were processed

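Total RNA of 1 Sox11 knockout and 1 wild-type retina was amplified and labelled with biotin, per the labels' protocols. The deposited table holds 1 linear intensity per probe set and array, scaled by the authors with software not given in the sources used here. The values show a common scaling: the mean without the outer 2% at each end was 100.0 on both arrays. Medians were 19.7 in the knockout and 17.6 in the wild type.

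The 64 control probe sets were left out. Ratios were taken on log2(intensity + 5), and 23581 probe sets (52.4%) reached the filter of 18.6. A fold against an array below the filter is the brighter intensity over 18.6. Names came from GEO's platform annotation (1 symbol for 34945 probe sets, several for 932, none for 9160). All 10 genes are given with every probe set, and up to 4 members of each list with the largest absolute ratios, besides members below the filter and relatives of a described gene. The members and lists were chosen with earlier results of these data known. The code was tested on simulated data (Python 3.11.15, pandas 2.3.3, statsmodels 0.14.6). The number of arrays limits the precision. Other scalings, pseudocounts, filters and choices of probe set are given in the closing section.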

Additional observations from a re-analysis of the deposited data

How the results depend on the processing

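The count of 5 probe sets at least 2-fold higher on the knockout array was lower under 6 alternatives. It was 4 after quantile normalization and after loess, 2 with the pseudocount at the pooled median (84 higher and 37 lower on the array), and 2 with the filter at the pooled 75th percentile of 109.4, where 4 of the 13 probe sets were left (35 and 24 on the array) and their median rose to 1.15. It was 3 after dropping probe sets whose suffix (_s_at, _x_at or _a_at) marks probes shared by transcripts, where 9 were left (273 and 68 on the array), and 3 with intensities below 18.6 set to it, an alternative chosen after seeing the data (142 and 41 on the array). It stayed at 5 after median centring and with no pseudocount (606 and 166 on the array), and was 6 of all 21 with no filter (912 and 617), against 347 and 94 on the array in the reported setting. No probe set of the group was 2-fold lower under any setting. The median log2 ratio of the group, 0.79 in the reported setting, moved both ways. It fell to 0.57 with 18.6 as the pseudocount, and to 0.60 with dimmer intensities raised to 18.6. Quantile and loess scaling gave 0.68 and 0.69, and median centring 0.77. The median was 0.71 over all 21 probe sets and 0.73 without the shared-probe suffixes. It rose to 0.96 without any pseudocount, besides the 1.15 above. Over the settings that gave a value, the log2 ratio ran from 1.33 to 1.42 for Ednrb, 0.79 to 0.96 for Dct, 0.53 to 0.63 for Pmel, 0.11 to 0.72 for Tyrp1, 0.40 to 1.0 for Tyr, 0.37 to 0.85 for Gpnmb, 0.13 to 1.64 for Mlana, 0.13 to 2.24 for Ttr and -0.18 to -0.05 for Mitf. The widest ranges, of Ttr and Mlana, belong to probe sets below 18.6 in the wild type, and Tyrp1 moved to 0.72 with the median over its probe sets. No paired analysis was possible because each genotype has 1 array.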
